A study of Mus musculus with 23 samples.

Results

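The transcriptomes of 16 single mMSCs were set against those of 5 single HL-1 cardiomyocytes (HL1cm), which are 21 of the 23 libraries of the series. The remaining 2 libraries, mMSC-PC and HL1cm-PC, are population controls made from bulk RNA and served only as a check. The mMSCs are bone marrow-derived mesenchymal stem cells of the C57BL/6J strain at passages 6 to 11, which the methods describe as purchased and isolated from male mice, and which were grown in complete alpha-MEM on gelatin. HL-1 is a mouse cell line of atrial origin that keeps dividing in culture, labelled with the same strain, at passages 70 to 85, grown in Claycomb medium with norepinephrine on fibronectin and gelatin. Both cell types were caught together on 1 Fluidigm C1 chip, HL1cm carrying a green cytoplasmic dye. Each single-cell library is 1 imaged live cell. The methods describe multiplexed sequencing on 1 MiSeq lane, and whether reads passed between libraries was not tested. Cell type, medium, passage, coating and dye changed together and cannot be told apart.

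MSCs are adherent stromal cells that can form bone, cartilage and fat, and they are known for the matrix, chemokines and growth factors they secrete. Cardiac muscle cells contract through sarcomeres, repeating units in which myosin filaments pull on actin filaments when calcium binds troponin. They draw most of their energy from the oxidation of fatty acids in mitochondria. Atrial muscle uses its own myosin light chains, Myl7 and Myl4.

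Values are FPKM as deposited, that is, fragment numbers corrected for transcript length and for the size of the library. Gene symbols starting with Mir or Snor were left out (759 of 23284), and 11824 of the remaining 22525 genes were at 1 FPKM or more in at least 2 of the 21 cells. Only these are compared, and the other 10701 are not. For each gene, log2 values were taken with values under 1 FPKM set to 1, and the mean over mMSCs minus the mean over HL1cm is called the difference below. A difference of 2 or more in size, which is 4-fold on this scale, is called past the fold. Because low values are raised to 1, the scale understates the difference of weakly expressed genes. Genes do not overlap when every cell of one type lies above every cell of the other. No source says that cells came from separate cultures, so each cell type is 1 sample, the cells are not replicates of it, and no test was made. Where 5 values stand in a row they are those of HL1cm1 to HL1cm5, and 3 values for mMSCs are the lowest, the median and the highest of 16 cells.

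Between 5195 and 7633 genes were above 0 in an mMSC and between 6782 and 7219 in an HL1cm. FPKM hold no read numbers, and the depth that the study states was not used here. The lowest numbers, 5195 and 5900, belonged to mMSC9 and mMSC15. The FPKM values of the genes kept summed to between 600757 and 712870 in the 16 mMSCs and to 658297 to 669131 in HL1cm1, HL1cm2 and HL1cm4, but to 507141 in HL1cm3 and 443218 in HL1cm5. A gene listed at 0 may still have been expressed. A share of 0 of 5 cells allows up to 52.2% of HL1cm (exact Clopper-Pearson 95% interval, counting error only), and 0 of 16 allows up to 20.6% of mMSCs.

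The cells carried the markers named for their labels, which are only some of those in use. Ly6a (Sca-1), Cd9 and Cd44, surface markers of mouse MSCs, were above 0 in all 16 mMSCs, with medians of 1190, 596 and 285 FPKM. No HL1cm was above 0 for Ly6a or Cd9, and Cd44 reached 1.94 FPKM there. Other genes of the study's MSC multipotency list were missing from mMSCs. Of its 38 genes 4, namely Thy1, Mme, Kit and Ptprcap, were listed at 0 in all 21 cells. Anpep was above 0 in 1 mMSC, at 1.68 FPKM (these 5 were named after their values were seen). Myl7, Tnni3 and Tnnt2 were above 0 in all 5 HL1cm, at medians of 34366, 3732 and 2807 FPKM. They were above 0 in 5, 1 and 6 of the 16 mMSCs, with 65.4, 39.3 and 40.8 FPKM at most. The source of these low values in mMSCs was not tested. One marker went against the stated sex of the donors. Xist, the RNA that coats the inactive X chromosome of female cells, was at 5.04, 15.3 and 31.0 FPKM in mMSCs and at most 0.132 in HL1cm. Of the chromosome Y genes on the same list, Ddx3y, Eif2s3y, Kdm5d and Uty were listed at 0 in all 23 libraries.

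The 2 cell types were separated across the whole transcriptome. Of the 11824 genes, 1032 (8.73%) were past the fold and higher in mMSCs and 1095 (9.26%) past it and higher in HL1cm, together 18% of all genes. The cells did not overlap for 259 genes higher in mMSCs (2.19%) and 210 higher in HL1cm (1.78%), 3.97% together. Without HL1cm3 and HL1cm5, the libraries with the lowest sums, these counts were 307 and 442. Such counts rise by themselves when fewer cells have to be apart. Leaving out any 1 HL1cm gave 276 to 312 and 237 to 287. The part of the low sums in this was not tested. A further step, above 0 in every cell of one type and listed at 0 in every cell of the other, was met by 87 genes for mMSCs (0.736%) and 83 for HL1cm (0.702%). The median difference of all genes was 0.08, and 57.1% of genes differed by less than 1. Among the 1530 genes at 1 FPKM or more in all 21 cells, 142 (9.28%) were past the fold. Counts of list members given below are to be read beside the shares of all genes above, past the fold and without overlap.

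**Figure D1:**
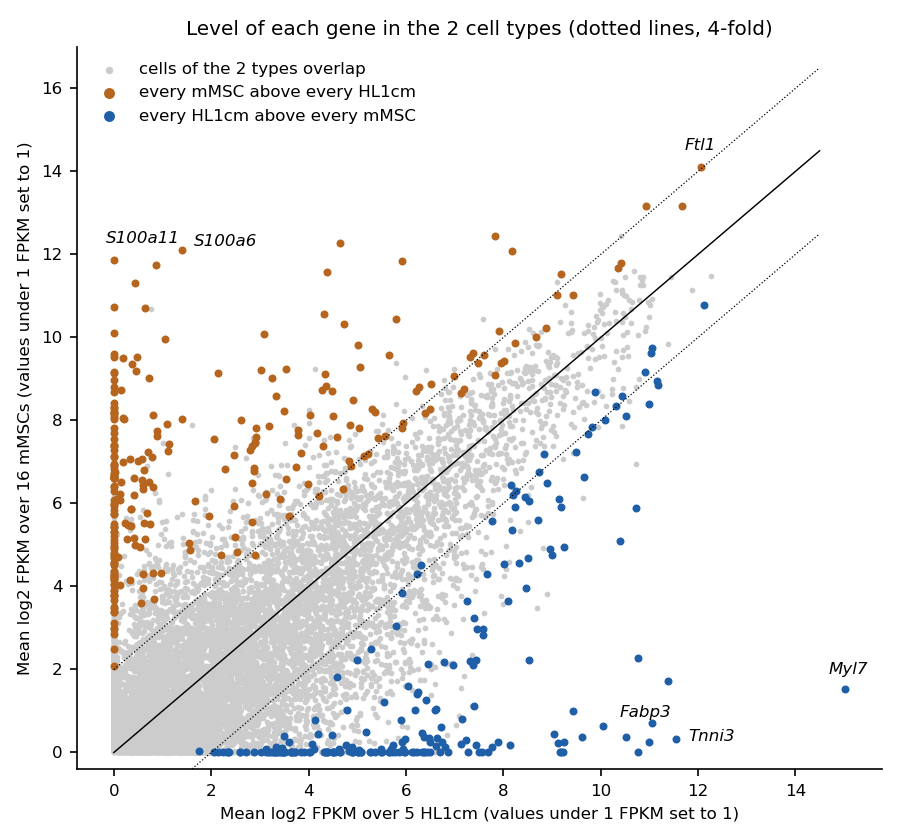
Each point is a gene (11824 in all), with its mean log2 FPKM over 5 HL1cm on the horizontal axis and over 16 mMSCs on the vertical axis, and the dotted lines mark the 4-fold limit. The 259 brown genes (every mMSC above every HL1cm) gather along the left edge, where HL1cm are listed at or near 0, and the 210 blue genes (every HL1cm above every mMSC) along the lower edge, with Myl7 farthest to the right.

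In PCA of the 21 cells over these genes, PC1 held 22.8% of the variance and PC2 6.18%. The mMSC and the HL1cm nearest to each other on PC1 were 71.0% of its range apart. Average linkage clustering on 1 minus Pearson's r, divided into 2 clusters, placed all 16 mMSCs in one and all 5 HL1cm in the other. Across genes, r had a median of 0.723 between pairs of mMSCs (0.642 to 0.770), 0.698 between pairs of HL1cm (0.663 to 0.724) and 0.538 between an mMSC and an HL1cm (0.474 to 0.593), so the highest value between types lay below the lowest within a type. Along PC2 the mMSCs spread from 65.4 (mMSC1) to −101 (mMSC9), with mMSC15 and mMSC9, the libraries with the fewest genes above 0, at the low end.

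**Figure D2:**
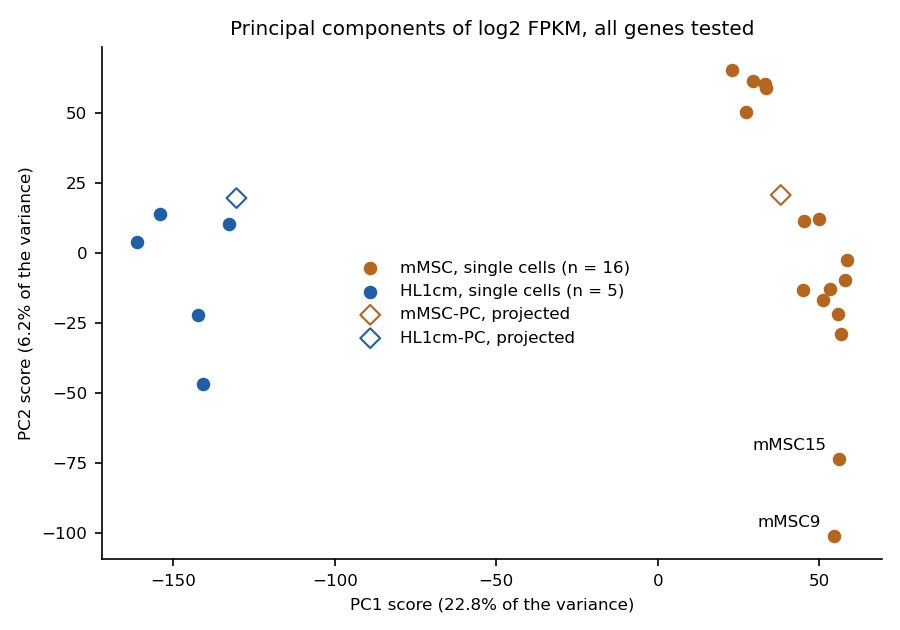
Scores of each cell on PC1 (22.8% of the variance) and PC2 (6.18%) of log2 FPKM, with filled circles for single cells and open diamonds for the population controls, which were projected and not used in the fit. On PC1 the HL1cm lie between −161 and −133 and the mMSCs between 23.1 and 58.4, and each population control falls on the side of its own cell type.

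The population controls gave the same direction for 1950 of the 2127 genes past the fold (91.7%), and 1328 (62.4%) were past it there too. Of the 469 genes without overlap, 467 had the same direction and 388 (82.7%) were past the fold. In the population controls, 10% of all genes were past the fold and higher in mMSC-PC and 16.8% higher in HL1cm-PC. In these bulk samples fewer expressing cells and less RNA per cell cannot be told apart. The genes past the fold with the largest opposite difference in bulk were weak and patchy in single cells. Spink2, for example, was at 0, 11.9 and 133 FPKM in mMSCs and listed at 0 in all 5 HL1cm and in mMSC-PC, but was at 13.4 FPKM in HL1cm-PC. Tmem80 was at 0, 9.34 and 48.1 FPKM in mMSCs and 11.5 to 68.3 in HL1cm. In bulk it was at 23.2 FPKM for mMSC-PC but 2.67 for HL1cm-PC.

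The 20 genes that led on the HL1cm side were those of largest difference with at least 10 FPKM in every HL1cm and no overlap, out of 152 such genes. The MSC multipotency genes that the study chose were left out of this ranking. Most belong to muscle. Myl7, the atrial regulatory myosin light chain (chr11:5896637-5898782), was at 40223, 46701, 20292, 34366 and 31995 FPKM and was the gene with the highest value in each HL1cm. Tnni3, cardiac troponin I (chr7:4518305-4522718), was at 4450, 4326, 3089, 3732 and 1104 FPKM. Myl1, a fast skeletal muscle light chain, was at 2005, 1443, 1696, 3118 and 1022 FPKM and was listed at 0 in all 16 mMSCs and in mMSC-PC. These genes lay far above every mMSC in all 5 cells, with HL1cm5 the lowest of the 5 for Tnni3 and Myl1 and HL1cm3 the lowest for Myl7.

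Fabp3, the heart fatty acid-binding protein, was at 3866, 2314, 1374, 2186 and 1328 FPKM, against at most 17.4 in the 1 mMSC where it was above 0. Other leaders were the muscle proteins Smpx and Popdc2, the glycolytic muscle isoform Pgam2, the glycogen-targeting phosphatase subunit Ppp1r3a and the stretch-responsive Ankrd1. Ankrd1 varied most among these 5 genes, from 111 FPKM in HL1cm1 to 3498 in HL1cm2. Mlana, which encodes a protein of pigment cell melanosomes, was at 285, 766, 995, 800 and 371 FPKM and listed at 0 in all 16 mMSCs. 1500015O10Rik was likewise at 248 to 1770 FPKM in HL1cm and listed at 0 in every mMSC. Art3, Bex4, Mlf1, Sh3bgr, Cox7a1, Actc1, Tnnt2, Tnni1 and Myl4 complete the 20, all at 193 FPKM or more in every HL1cm.

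**Figure D3:**
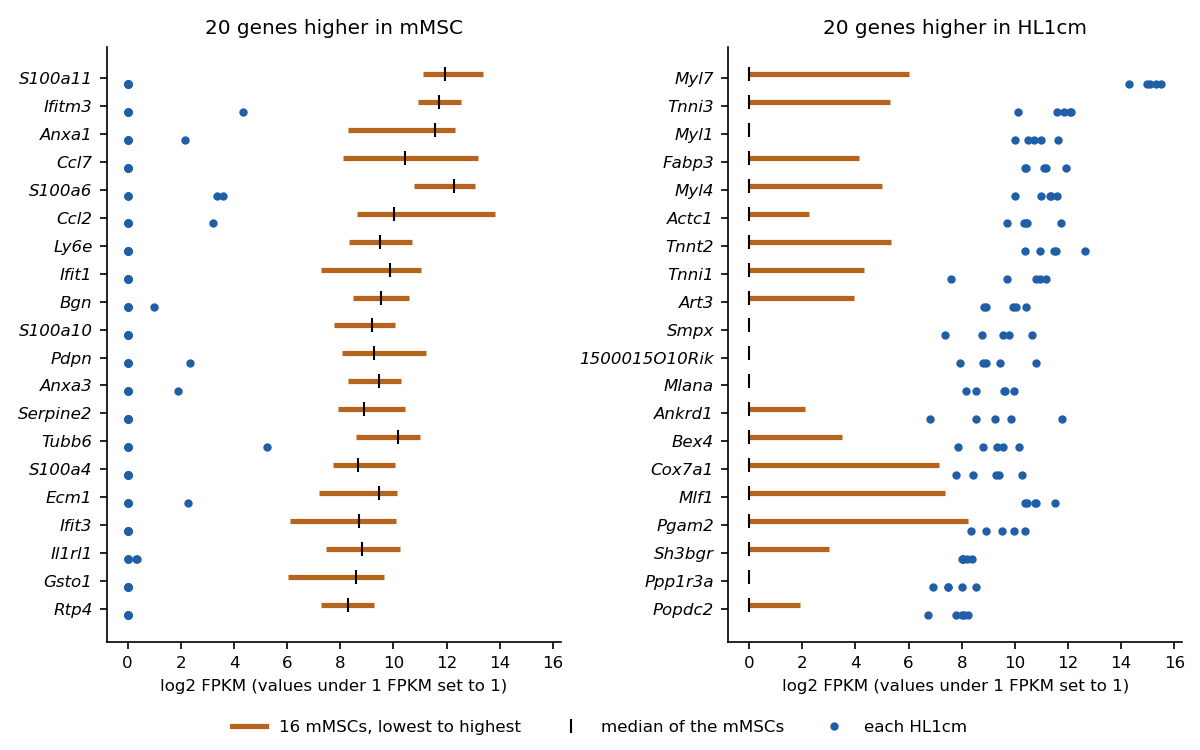
The 20 leading genes of each direction outside the study's MSC multipotency list, with log2 FPKM on the horizontal axis, brown bars from the lowest to the highest of 16 mMSCs, black ticks at their median and a blue point for each of 5 HL1cm. No bar reaches the points of the same gene, and S100a11, Ccl7, Ly6e, Ifit1 and others on the left have all 5 HL1cm listed at 0.

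Of the lists of cardiac genes the sarcomere had the largest median difference. Of its 34 genes 30 were tested and 25 were past the fold and higher in HL1cm (83.3%, beside 9.26% of all genes), none was higher in mMSCs, and 19 did not overlap. The list's median difference was −4.95, beside 0.08 for all genes. Its mean log2 level was 6.65, 6.54, 5.80, 7.06 and 5.89 in the 5 HL1cm and between 0.67 and 1.41 in mMSCs. Actc1, cardiac actin, was at 1385, 3413, 823, 1398 and 1284 FPKM and at most 4.82 in mMSCs, a difference of −10.15. Tnnt2 (cardiac troponin T) was at 2988, 2807, 6403, 1979 and 1327 FPKM, a difference of −9.67. Tnni1, slow skeletal troponin I, which the heart uses before birth, stood beside Tnni3 at 1993, 193, 2302, 1765 and 842 FPKM.

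The thick filament was of the alpha type. Myh6, the alpha myosin heavy chain, was at 180, 78.7, 107, 262 and 45.5 FPKM, whereas Myh7, the beta chain, was above 0 in HL1cm1 alone, at 4.66 FPKM (both named after their values were seen). Titin (Ttn), also named afterwards, was at 33.1, 19.5, 8.43, 12 and 16.8 FPKM. The tested genes of the list that were not past the fold, named for that reason after their values were seen, were Nebl, Tpm1, Pdlim5, Cryab and Flnc. Cryab, a small heat shock protein, was at 194, 661 and 1681 FPKM in mMSCs and 469 to 1143 in HL1cm, and the cells of the types overlapped.

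The bases before the start of 3 of these genes are shown with the CArG box, T-box and Gata motifs that they carry. The 250 bases upstream of each start site were taken from RefSeq promoters (GRCm38.p6, the same build as mm10) and searched on both strands. They are shown because the genes lead the HL1cm side, and the 3 were picked after the search, from the 10 genes of the sarcomere list with the largest difference. Of the others, Tnni3 held the T-box motif and Tnnt2 and Smpx the Gata motif. At least for Tnni3, Tnnt2, Tnni1 and Myl4 the start site used lies inside the RefSeq span of the gene. Myl4, Tnni1, Myh6 and Des held none of these motifs and no Mef2 site. Capitals mark a CArG box in Myl7 (61 to 52 bases before the start) and in Actc1 (47 to 38 bases before it), and in Ankrd1 the T-box motif GGTGTGA (76 to 70) and the Gata motif AGATAA, here on the other strand (47 to 42). The marked motifs do not overlap each other.
Myl7, chr11:5898783-5899032, minus strand: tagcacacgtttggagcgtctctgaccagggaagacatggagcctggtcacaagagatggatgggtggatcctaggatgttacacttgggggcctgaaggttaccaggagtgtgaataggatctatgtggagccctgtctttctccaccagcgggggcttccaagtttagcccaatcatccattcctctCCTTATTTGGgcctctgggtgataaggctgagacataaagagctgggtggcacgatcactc
Actc1, chr2:114052876-114053125, minus strand: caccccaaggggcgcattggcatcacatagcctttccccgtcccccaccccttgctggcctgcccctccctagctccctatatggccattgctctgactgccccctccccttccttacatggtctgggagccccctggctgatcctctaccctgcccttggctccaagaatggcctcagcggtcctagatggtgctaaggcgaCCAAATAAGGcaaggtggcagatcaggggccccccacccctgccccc
Ankrd1, chr19:36119845-36120094, minus strand: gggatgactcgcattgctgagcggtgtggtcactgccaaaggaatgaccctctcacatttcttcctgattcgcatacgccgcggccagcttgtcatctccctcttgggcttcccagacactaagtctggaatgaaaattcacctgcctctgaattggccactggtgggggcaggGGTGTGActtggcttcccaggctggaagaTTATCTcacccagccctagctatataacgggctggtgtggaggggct

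Of the 30 tested sarcomere genes, 26 (86.7%) had a promoter in the table. A CArG box was found in 4 of the 26 (15.4%), beside 1.40% of all 27025 promoters, a Mef2 site in 4 (15.4% beside 3.01%), AGATAA in 6 (23.1% beside 10.3%) and GGTGTGA in 2 (7.69% beside 3.31%). The Tead motif GGAATG was found in 7 (26.9% beside 12.6%), the Runx motif TGTGGT in 7 (26.9% beside 14.2%), the E-box CANNTG in 21 (80.8% beside 66.0%) and the AP-1 motif TGANTCA in 1 (3.85% beside 6.87%). A match is a run of letters and not a bound site. The same shares over all genes past the fold would be void, because only 79.6% of the genes tested and 75.4% of those higher in mMSCs had a promoter in the table, under the 80% asked for.

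A further list holds genes that move calcium in and out of the sarcoplasmic reticulum and across the membrane. Of its 33 genes 20 were tested, and 13 were past the fold and higher in HL1cm (65%, beside 9.26% of all genes). None was past it and higher in mMSCs, and 7 did not overlap (median difference −2.58). Pln, which restrains the calcium pump, was at 70.1, 103, 178, 372 and 29.7 FPKM and above 0 in 2 mMSCs, with 6.36 at most. Casq2, the calcium store of the reticulum, was at 266, 79.2, 22.5, 164 and 77.1 FPKM and listed at 0 in all mMSCs. The pump itself, Atp2a2, was also present in mMSCs, at 5.76, 32.6 and 81.2 FPKM, against 442, 480, 359, 375 and 232 in HL1cm, a difference of −3.82.

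Of 29 cardiac transcription factor genes, 23 were tested. Past the fold, 8 were higher in HL1cm (34.8%, beside 9.26% of all genes) and 2 higher in mMSCs (8.7%, beside 8.73%). Myocd, a coactivator of serum response factor, had the largest difference of the list (−6.12), at 151, 57.2, 74.8, 75.7 and 110 FPKM and at most 10.1 in mMSCs. Tbx20 was at 47.5, 17.7, 46.3, 46.9 and 18.8 FPKM and Gata4 at 49.2, 36.9, 9.79, 83.6 and 12.4, and neither overlapped mMSCs. Others were missing from single HL1cm. Tbx5 was listed at 0 in HL1cm3 and was at 32.3 to 86.7 FPKM in the other 4. Nkx2-5, named after its values were seen, was at 12.9 FPKM in HL1cm1 and 66.8 in HL1cm4 and listed at 0 in the other 3. Of 12 genes of natriuretic peptides and dense granules 4 were tested and 3 (75%) were past the fold and higher in HL1cm (median −3.78). The atrial hormone gene Nppa showed the same 2 cells, at 1603 FPKM in HL1cm1 and 1641 in HL1cm4 and listed at 0 in HL1cm2, HL1cm3 and HL1cm5. The population control HL1cm-PC held 46.7 FPKM of Nkx2-5 and 367 of Nppa.

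Junctions between heart cells were represented by 17 tested genes, of which 7 were past the fold and higher in HL1cm (41.2%, beside 9.26% of all genes). None was past it and higher in mMSCs (median difference −1.10). The desmosome genes Dsp (48.8, 64.3, 194, 11.7 and 45.9 FPKM) and Dsg2 (27.8, 86.1, 14.6, 29.1 and 41.6 FPKM) were listed at 0 in all 16 mMSCs. HL1cm also carried Krt18, a keratin of simple epithelia, at 193, 298, 17.0, 207 and 48.5 FPKM, against at most 7.33 in mMSCs. It was 1 of 3 tested genes of a 16-gene epithelial list. Of the others, Krt19 was past the fold in the opposite direction, at 0, 15.4 and 180 FPKM in mMSCs and listed at 0 in all HL1cm, and Epcam was not past it.

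Transcripts of fuel metabolism differed in level and in isoform. Of 25 tested genes of fatty acid uptake and oxidation 13 were past the fold and higher in HL1cm (52%, beside 9.26% of all genes). Of 18 citrate cycle genes 7 were (38.9%). None of either list was past it and higher in mMSCs, and the median differences were −2.09 and −1.30. Mean log2 levels of these lists did not overlap, at 4.79 to 5.43 in HL1cm and 2.09 to 3.34 in mMSCs for fatty acid genes, and at 5.93 to 7.15 and 4.07 to 5.35 for the citrate cycle. Acadm, the medium-chain acyl-CoA dehydrogenase, was at 431, 216, 154, 151 and 62.3 FPKM against 0, 10.3 and 47.0 in mMSCs. Acadl, which acts on longer chains, was at 184, 198, 380, 129 and 97.6 FPKM against 0, 12.8 and 33.4. Mitochondrial Idh2 was at 293, 91.1, 168, 379 and 153 FPKM against 0, 8.80 and 65.2. Each of these 3 genes was higher in every HL1cm than in every mMSC.

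Nuclear genes of the respiratory chain were higher in HL1cm as a group, by a smaller step. Of 81 tested, 16 were past the fold and higher in HL1cm, which is 19.8% beside the background of 9.26%, none was past it and higher in mMSCs, and 14 did not overlap. The median difference was −1.20, and the mean log2 level was 9.05, 8.71, 8.79, 8.73 and 7.91 in HL1cm against 6.90 to 7.57 in mMSCs. The members of largest difference were subunits of cytochrome c oxidase that replace a general form in striated muscle. Cox7a1 was at 622, 343, 1236, 680 and 221 FPKM and above 0 in 1 mMSC, at 143. Cox6a2 was at 186, 86.8, 258, 415 and 141 FPKM and listed at 0 in all 16 mMSCs. The mitochondrial ribosome list had 16 of 76 genes past the fold and higher in HL1cm (21.1%). It had 6 higher in mMSCs (7.89%, beside 8.73% of all genes), with a median difference of −0.70.

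Among energy transfer genes, Ckmt2, the creatine kinase of striated muscle mitochondria, was at 171, 142, 255, 512 and 62.1 FPKM and listed at 0 in all mMSCs, while the list of 8 tested genes had a median of −0.03. Of 23 tested genes of glycolysis and glucose uptake, 8 were past the fold and higher in HL1cm (34.8%, beside 9.26% of all genes). Past it and higher in mMSCs were 3 (13%, beside 8.73%), and the median was −0.53. Pgam2 was at 724, 1011, 485, 1332 and 329 FPKM in HL1cm and above 0 in 3 mMSCs, at most 301. Ldhb, the lactate dehydrogenase subunit typical of heart, was at 733, 633, 574, 508 and 182 FPKM, against 0, 39.3 and 402 in mMSCs, and the types overlapped.

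To compare isoforms within a cell, the log2 ratio of 26 pairs of related genes was taken, with a muscle or heart form first and a general or alternative form second. The ratio did not overlap between the types in 12 of the 26, and in all 12 every HL1cm lay above every mMSC. Such ratios do not depend on the scale of a library, but they do depend on the limit of 1 FPKM where a gene is listed at 0. Cox6a2/Cox6a1 was −5.31, −5.61, −4.26, −3.48 and −4.84 in HL1cm, so the general form was the higher in every HL1cm too, while Cox6a2 was listed at 0 in all mMSCs.

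Myl4/Myl6 compares the atrial with the non-muscle essential light chain. It was 0.90, 0.82, 1.46, 1.32 and 0.50 in HL1cm and −11.3, −10.7 and −6.13 in mMSCs, so that Myl4 exceeded Myl6 in every HL1cm and in no mMSC. Fabp3/Fabp5 was 11.9, 11.2, 7.77, 11.1 and 10.4 in HL1cm and −8.19, −5.73 and 0 in mMSCs, since Fabp5, at a median of 60.2 FPKM in mMSCs, was above 0 in 1 HL1cm (6.30 FPKM). Gata4/Gata6 was 5.62, 5.21, 1.82, 6.38 and 0.19 in HL1cm and at or below 0 in all mMSCs, where Gata6 had a median of 16.6 FPKM. Des/Vim kept the same order in both types, with vimentin above desmin in all 21 cells. The ratio was −4.19 to −2.17 in HL1cm, and desmin was listed at 0 in all 16 mMSCs. The pair that went the other way most was Fhl2/Fhl1, 2 LIM domain genes, at 0.51, 8.45 and 9.20 in mMSCs and −0.22, 1.70, 5.12, 2.52 and 1.31 in HL1cm, with overlap.

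**Figure D4:**
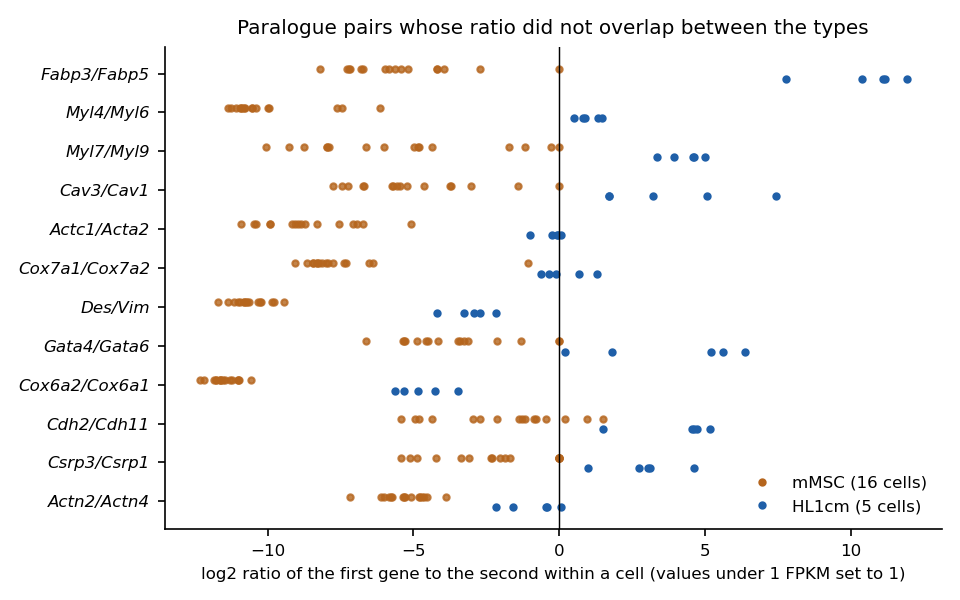
The 12 paralogue pairs without overlap, with the log2 ratio of the first gene to the second within each cell on the horizontal axis, brown for the 16 mMSCs and blue for the 5 HL1cm. The vertical line marks equal levels, and for pairs such as Myl4/Myl6 and Fabp3/Fabp5 the blue points lie to its right and the brown points at or to its left.

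On the mMSC side the 20 leading genes were chosen by the same rule from 195, so genes of the study's MSC multipotency list, such as Ly6a, could not be among them. The 20 included S100 proteins and annexins, chemokines, interferon-induced genes, secreted and surface proteins, a tubulin and a glutathione transferase. S100a11 (chr3:93520496-93526288) was at 2199, 3884 and 10446 FPKM in mMSCs and at 0 in HL1cm-PC and every HL1cm. Of the list of annexins, S100 proteins and galectins, 14 of 24 tested genes were past the fold and higher in mMSCs (58.3%, beside 8.73% of all genes). None was past it and higher in HL1cm, and 9 did not overlap (median difference 3.15). S100a6 was at 1748, 4942 and 8478 FPKM and reached 11.9 in HL1cm. S100a10 (216, 581 and 1063 FPKM) and S100a4 (213, 405 and 1078 FPKM) were listed at 0 in every HL1cm. Anxa1, a phospholipid-binding protein with anti-inflammatory actions, was at 313, 3061 and 5074 FPKM and at 4.47 in HL1cm3 alone.

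Several leaders sit at the cell surface or are secreted. Ly6e, a relative of Ly6a, was at 322, 722 and 1659 FPKM, Pdpn (podoplanin) at 270, 609 and 2415, and Il1rl1, the receptor of interleukin 33, at 178, 453 and 1212. In HL1cm, Ly6e was listed at 0, Pdpn was above 0 in HL1cm2 alone (5.11 FPKM) and Il1rl1 reached 1.28 FPKM. The protease inhibitor Serpine2 was at 238, 472 and 1392 FPKM and Gsto1, a glutathione transferase, at 66.1, 381 and 801, and both were listed at 0 in all 5 HL1cm. Ecm1 was at 147, 703 and 1117 FPKM and Tubb6, a beta tubulin, at 388, 1154 and 2069, each above 0 in 1 HL1cm, at 4.76 and 37.9 FPKM.

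Of 22 tested collagen genes 9 were past the fold and higher in mMSCs (40.9%, beside 8.73% of all genes). Past it and higher in HL1cm were 2 (9.09%, beside 9.26%), and 4 of the 22 did not overlap (median difference 1.48). Both chains of collagen I were there, Col1a2 at 80.3, 317 and 1194 FPKM and Col1a1 at 30.8, 134 and 385, with Col5a2 at 36.4, 100 and 236. Col1a2 was listed at 0 in all 5 HL1cm, Col1a1 was at 7.61 FPKM in HL1cm5 and Col5a2 at 1.71 in HL1cm1. Going the other way, Col4a3, a basement membrane chain, was at 24.9, 107, 1.12, 116 and 82.8 FPKM in HL1cm against 0, 0 and 19.3 in mMSCs, with overlap through HL1cm3.

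Other matrix lists had larger medians. Of 17 tested matricellular genes 10 were past the fold and higher in mMSCs (58.8%, beside 8.73% of all genes) and none higher in HL1cm (median 4.16). Of 20 proteoglycan, fibronectin and elastic fibre genes these were 11 (55%) and 1 (5%), with a median of 2.39. Thbs1 (thrombospondin 1) was at 61.0, 335 and 630 FPKM and listed at 0 in all HL1cm. Spp1 (osteopontin) was at 578, 2552 and 11947 FPKM against 38.5, 6.34, 21.2, 21.2 and 35.5 in HL1cm, a difference of 7.21. Biglycan (Bgn) was at 359, 747 and 1540 FPKM and at 1.97 in HL1cm1 alone. Fibronectin (Fn1) was present in both types, at 24.8, 59.1 and 128 FPKM in mMSCs and 9.31, 4.95, 5.79, 3.79 and 5.21 in HL1cm, and did not overlap. Decorin (Dcn), also named afterwards, stood at 0 in every library, population controls included.

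Of 11 tested metalloproteinase and Timp genes 5 were past the fold and higher in mMSCs (45.5%, beside 8.73% of all genes). None was past it and higher in HL1cm, and all 5 did not overlap. Timp1 was at 1780, 5492 and 9176 FPKM against 38.7, 11.7, 26.1, 15.1 and 56.7 in HL1cm (difference 7.62), Timp3 at 52.1, 279 and 909 and Timp2 at 22.4, 83.3 and 179. The proteases Mmp2 (22.1, 77.0 and 291 FPKM) and Mmp14 (3.14, 23.6 and 94.3 FPKM) were also higher in mMSCs, and Mmp14 was listed at 0 in all HL1cm. Of the enzymes that crosslink the matrix, Lox was at 43.6, 176 and 252 FPKM and at most 2.08 in HL1cm. Tgm2, a transglutaminase, ran the other way, at 75.5, 48.8, 75.4, 35.9 and 76.3 FPKM in HL1cm and 5.73 at most in mMSCs. In bulk the direction of Tgm2 was the same, with 41.2 FPKM in mMSC-PC and 218 in HL1cm-PC, although mMSC-PC lay far above every single mMSC.

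Of 23 tested genes of collagen processing and crosslinking 6 (26.1%) were past the fold and higher in mMSCs and 2 (8.7%) higher in HL1cm (median 0.79). Of 7 laminins and nidogens these were 2 (28.6%) and 1 (14.3%), with a median of 0.22. Of 15 tested integrin genes these were 4 (26.7%) and 1 (6.67%), with a median of 0.10. The shares of all genes were 8.73% and 9.26%. Itgb1, the common beta subunit, was at 93.0, 138 and 231 FPKM in mMSCs and 41.6, 52.8, 9.32, 47.0 and 54.8 in HL1cm, a difference of 2.03 that was 1.73 once libraries were scaled by their median ratio. The 1 member higher in HL1cm, Itgb3bp, is caught by its symbol and encodes a centromere protein, not an integrin.

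Mesenchymal transcription factors were at low FPKM and on the mMSC side. Of 36 genes 22 were tested, and 10 were past the fold and higher in mMSCs (45.5%, beside 8.73% of all genes). None was past it and higher in HL1cm. The mean log2 level was 2.06 to 3.46 in mMSCs and 0.09 to 0.40 in HL1cm. Sox9, a regulator of cartilage, was at 5.89, 76.6 and 353 FPKM and Runx1, a relative of the bone regulator Runx2, at 5.01, 31.3 and 66.3. Sox9 was listed at 0 in all HL1cm, and Runx1 was at 1.33 FPKM in HL1cm5 alone. Of 16 tested Hox genes 1 (6.25%) was past the fold, Hoxc10, at 0, 12 and 44.2 FPKM in mMSCs and listed at 0 in all HL1cm.

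Of 35 tested growth factors and their antagonists 16 were past the fold and higher in mMSCs (45.7%, beside 8.73% of all genes). Past it and higher in HL1cm were 4 (11.4%, beside 9.26%), and 7 higher in mMSCs and 1 higher in HL1cm did not overlap. Pleiotrophin (Ptn) was at 11.2, 128 and 237 FPKM and listed at 0 in all HL1cm. Fgf7 was at 52.6, 232 and 497 FPKM and above 0 in HL1cm2, at 21.1. Inhba, the activin A subunit, was at 147, 510 and 1079 FPKM and at 0, 28.8, 0, 111 and 23.8 in HL1cm. On the HL1cm side stood Dkk3, a member of the Dickkopf family, at 10.1, 64.9, 24.5, 65.6 and 21.8 FPKM and above 0 in 1 mMSC (4.36 FPKM). Among 17 receptor tyrosine kinases 3 (17.6%) were past the fold and higher in mMSCs without overlap, namely Axl (14.2, 54.3 and 72.7 FPKM), Fgfr1 (12.7, 33.1 and 97.5 FPKM) and Pdgfrb (7.57, 20.8 and 48.3 FPKM). Past it and higher in HL1cm was 1 (5.88%), Ddr1.

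Of the 53 lists the interferon response had the largest median difference on the mMSC side. It holds genes that cells switch on when type I or type II interferons reach their receptors. Of 32 genes, all tested, 28 (87.5%, beside a background of 8.73%) were past the fold and higher in mMSCs, none was higher in HL1cm, and 20 did not overlap. The median difference was 5.29. The mean log2 level ran from 5.73 to 7.23 in the 16 mMSCs and was 1.13, 1.42, 1.59, 0.93 and 1.13 in HL1cm. It was 7.59 in mMSC-PC and 2.03 in HL1cm-PC, on the same sides.

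Ifitm3, which blocks virus entry at membranes (chr7:141009590-141010744), was at 1949, 3358 and 5928 FPKM and above 0 in HL1cm5 alone, at 20.2. Ifit1, which binds foreign RNA, was at 153, 938 and 2106 FPKM, Ifit3 at 69.5, 412 and 1100 and Gbp2, a guanylate-binding protein, at 62.0, 234 and 1004. For all 3, HL1cm-PC and each of the 5 HL1cm were at 0. Irf7, a transcription factor of the response named after its values were seen, was at 43.7, 143 and 337 FPKM in mMSCs and listed at 0 in 4 of 5 HL1cm. The 4 genes that were not past the fold, also named afterwards, were Ifitm1, Ifitm2, Ddx58 and Ifi35. Ifitm2, close in sequence to Ifitm3, was high in both types, at 453, 715 and 1648 FPKM in mMSCs and 299, 367, 253, 600 and 139 in HL1cm. Because reads of near-identical family members can be split between them, the levels of single Ifitm, H2 and Gbp genes are uncertain.

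The interferon genes Ifnb1, Ifng and Ifna1 were listed at 0 in all 23 libraries. The receptor genes Ifnar1 and Ifnar2 were above 0 in both types. Ifnar1 was at 0.576, 6.18 and 24.1 FPKM in mMSCs and 6.63, 1.98, 1.08, 0.336 and 0.753 in HL1cm, and Ifnar2 reached 153 FPKM in mMSCs and 63.9 in HL1cm. These 5 genes were named after their values were seen.

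The 250 bases before the start site of Ifit1 and Ifit3 hold the letters GAAANNGAAA, the interferon-stimulated response element, 2 times each. The start site used for Ifit3 lies inside its RefSeq span, which begins at chr19:34583119. This motif was added after the values were seen, and it occurs on either strand in 3.04% of the 27025 promoters. Capitals mark it, here on the other strand as TTTCNNTTTC, at 104 to 95 and 85 to 76 bases before the start of Ifit1 and at 156 to 147 and 122 to 113 bases before that of Ifit3. The 2 genes are shown because they were the interferon genes of largest difference that hold the letters, and were picked after the search. Ifitm3, which leads the list, does not hold them in its 250 bases. Of the next interferon genes by difference, Lgals3bp, Oasl2, Ifi44 and Irf7 do not hold them either, while Gbp2, Gbp3 and Bst2 do. A share over the whole list would be void, since 75% of its genes had a promoter in the table.
Ifit1, chr19:34640639-34640888, plus strand: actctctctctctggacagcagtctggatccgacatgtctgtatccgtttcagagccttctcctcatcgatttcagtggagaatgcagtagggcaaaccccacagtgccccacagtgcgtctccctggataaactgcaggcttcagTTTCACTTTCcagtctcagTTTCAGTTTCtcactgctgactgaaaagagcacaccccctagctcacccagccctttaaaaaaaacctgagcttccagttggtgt
Ifit3, chr19:34583279-34583528, plus strand: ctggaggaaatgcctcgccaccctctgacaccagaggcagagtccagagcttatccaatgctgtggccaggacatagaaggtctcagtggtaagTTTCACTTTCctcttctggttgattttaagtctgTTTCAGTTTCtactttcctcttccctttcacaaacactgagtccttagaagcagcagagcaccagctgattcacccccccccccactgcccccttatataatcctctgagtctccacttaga

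Genes of antigen presentation were also on the mMSC side. Of 15 genes of MHC class I presentation 8 were past the fold and higher in mMSCs (53.3%, beside 8.73% of all genes). None was past it and higher in HL1cm (median 2.26), and 4 did not overlap. B2m, the light chain of class I molecules, was at 2662, 4142 and 7266 FPKM in mMSCs and 420, 162, 225, 387 and 340 in HL1cm, a difference of 3.91. The immunoproteasome subunits Psmb8 and Psmb9 differed by 4.21 and 4.24, with medians of 408 and 76.8 FPKM in mMSCs. Psmb9 overlapped through HL1cm3, at 82.0 FPKM. Of the whole proteasome list 5 of 38 genes (13.2%) were past the fold, all higher in mMSCs, and the median was 0.37.

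Of 48 chemokine and cytokine genes 21 were tested, and 8 were past the fold and higher in mMSCs (38.1%, beside 8.73% of all genes). Past it and higher in HL1cm was 1 (4.76%, beside 9.26%), and 3 of the 21 did not overlap. The monocyte chemoattractants Ccl7 (272, 1387 and 9381 FPKM) and Ccl2 (393, 1041 and 14526 FPKM) were above 0 in all 16 mMSCs. Ccl7 was listed at 0 in all HL1cm and Ccl2 was above 0 in HL1cm5 alone, at 9.16 FPKM. Ccl5 ranged from 0 to 14839 FPKM among mMSCs, with a median of 2247, and Cxcl10 from 0 to 1589 with a median of 306. In HL1cm, Cxcl10 was at 162 FPKM in HL1cm2 and 121 in HL1cm5 and listed at 0 in the other 3. Csf1, the growth factor of macrophages, was at 71.6, 183 and 595 FPKM and reached 31.0 in HL1cm3. The 1 gene higher in HL1cm was Ccl25, at 118, 117, 14.3, 17.0 and 19.6 FPKM.

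Markers of other cell types were looked at beside these lists. Of 16 macrophage genes, 6 were above 0 in at least 1 mMSC, and 10, among them Ptprc, Lyz2 and Emr1, were listed at 0 in all 21 cells. Cd14 was above 0 in 15 of 16 mMSCs with a median of 62.5 FPKM, Csf1r in 8 with a median of 1.16, and both were listed at 0 in all HL1cm. The summed level of the 16 genes ran from 3.10 to 369 FPKM in mMSCs, with a median of 70.8, and from 0 to 1.10 in HL1cm. The part of such cells in the immune lists was not tested. Of 14 endothelial genes 2 were tested, Kdr and Eng, and neither was past the fold. Lpl and Clu, fixed in an adipocyte and a complement list, were higher in HL1cm without overlap, Lpl at 69.4, 50, 107, 69.9 and 16.9 FPKM and Clu at 496, 910, 113, 575 and 238. Pparg and Fabp4 were above 0 in 10 and 5 mMSCs and in no HL1cm.

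The cytoskeleton of mMSCs was of a non-muscle kind. Of 26 such genes 9 were past the fold and higher in mMSCs (34.6%, beside 8.73% of all genes). Past it and higher in HL1cm were 2 (7.69%, beside 9.26%), and 7 of the 26 did not overlap. Myh9, the non-muscle myosin IIA heavy chain, was at 137, 199 and 441 FPKM against 14.4, 19.8, 4.91, 19.2 and 18.9 in HL1cm, a difference of 3.98. Tpm4 was at 362, 826 and 1435 FPKM against 51.9, 48.3, 21.7, 152 and 38.6. Actb, often used as a reference gene, was higher in mMSCs by 2.23, at 3774, 9871 and 15484 FPKM against 2676, 2720, 805, 1533 and 3225, and by 1.94 once libraries were scaled by their median ratio.

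Smooth muscle genes lay on both sides, and the mean levels of the cells overlapped. Of 13 tested, 4 were past the fold and higher in HL1cm (30.8%, beside 9.26% of all genes). Past it and higher in mMSCs was 1, Cnn1 (7.69%, beside 8.73%), at a difference of 2.92. The median of the list was −0.33. The 4 higher in HL1cm were the following. Myl9, the smooth muscle regulatory light chain, was at 1671, 1880, 1971, 2219 and 997 FPKM in HL1cm against 0, 224 and 1069 in mMSCs. Mylk, the kinase that acts on it, was at 79.3, 69.6, 48.8, 114 and 45.1 FPKM against 0, 1.22 and 90.5. Tagln was at 234, 690, 18.4, 790 and 69.0 FPKM against 0, 14.3 and 511. These 3 genes overlapped, while Synpo2, at 8.51 to 15.4 FPKM in HL1cm, was listed at 0 in all mMSCs.

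Lysosomal genes were higher in mMSCs. Of 23 tested, 10 were past the fold and higher in mMSCs (43.5%, beside 8.73% of all genes). Past it and higher in HL1cm was 1 (4.35%, beside 9.26%). Higher in mMSCs without overlap were 6, and higher in HL1cm 1 (median 1.81). Cd63, a tetraspanin of late endosomes, was at 2641, 3706 and 5034 FPKM, against 83.2, 62.8, 16.7, 94.3 and 100 in HL1cm (difference 5.91). Cathepsin L (Ctsl) was at 75.8, 206 and 350 FPKM against 41.4, 4.01, 40.2, 0 and 3.71. Of 24 antioxidant genes 4 (16.7%) were past the fold and higher in mMSCs and 1 (4.17%) higher in HL1cm. That 1 was Gpx3, a secreted glutathione peroxidase, at 2148, 2782, 1858, 2417 and 525 FPKM against 0, 155 and 465 in mMSCs. Sod2, the mitochondrial superoxide dismutase, was at 114, 91.0, 52.4, 119 and 48.1 FPKM and did not overlap the 11.7 to 38.5 of mMSCs, at a difference of −1.78.

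Cell cycle genes differed by their median and yet overlapped. Of 37 tested G2/M genes 30 were past the fold and higher in HL1cm (81.1%, beside 9.26% of all genes), and of 26 S phase genes 15 (57.7%). None of either list was past it and higher in mMSCs, and every gene of both lists overlapped. The mean log2 level of the G2/M list was 7.07, 2.02, 6.30, 5.68 and 5.71 in HL1cm, so HL1cm2 stood far below the other 4, and it ran from 0.46 to 5.78 with a median of 1.44 in mMSCs. That of the S phase list was 4.69, 5.71, 3.2, 6.21 and 5 in HL1cm and 1.25 to 5.71 in mMSCs. Ube2c, which marks mitotic proteins for destruction, was at 1456, 77.7, 1154, 467 and 202 FPKM against 0, 15.5 and 407, and Mki67 at 160, 13.1, 74.3, 39.9 and 65.0 against 0, 0.412 and 29.5. The share of dividing cells and the rate of division cannot be told apart from these levels.

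Of 13 tested CDK inhibitors, Rb family members and D cyclins 3 (23.1%) were past the fold in each direction. The median difference was −0.20 and the mean levels of the cells overlapped. Ccnd2 and Ccnd1, D cyclins that drive passage through G1, were at 61.1, 125 and 242 and at 10.9, 68.0 and 219 FPKM in mMSCs, and reached 1.63 and 1.56 FPKM in HL1cm, with differences of 6.81 and 5.96. Cdkn2d, an inhibitor of the kinases these cyclins activate, was at 318, 124, 145, 101 and 227 FPKM in HL1cm against 0, 0 and 66.2 in mMSCs. These 3 were the members without overlap. Cdkn1a (p21), named after its values were seen, was at 24.0, 56.0 and 153 FPKM in mMSCs and at 0, 282, 160, 196 and 8.55 in HL1cm. Of 20 tested p53 targets 3 were past the fold and higher in mMSCs (15%, beside 8.73% of all genes) and 2 higher in HL1cm (10%, beside 9.26%).

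Of 20 tested immediate early genes 4 were past the fold and higher in mMSCs (20%, beside 8.73% of all genes) and 2 higher in HL1cm (10%, beside 9.26%). Fos, part of AP-1, had the largest difference (−7.26), at 148, 394, 60.6, 251 and 184 FPKM in HL1cm and above 0 in 1 mMSC (7.78 FPKM). Egr1 was at 0, 118, 16.2, 493 and 45.1 FPKM against 0, 7.81 and 48.8, with overlap. Other members of the same families stood on the mMSC side, with Fosl1 at 0, 6.50 and 42.7 FPKM and listed at 0 in all HL1cm, and Ier3 at 5.51, 120 and 879 FPKM against 0 to 17.5.

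Counts in the next lists stand beside 8.73% of all genes past the fold and higher in mMSCs and 9.26% higher in HL1cm. Of 78 tested cytoplasmic ribosomal protein genes 1 (1.28%) was past the fold in each direction and the median difference was 0.46. Yet 10 of the 78 did not overlap and were higher in mMSCs, beside 2.19% of all genes, and 1 did not and was higher in HL1cm. The 1 past the fold and higher in mMSCs was Rpl39l, a tissue-restricted copy of Rpl39, at 48.7, 191 and 565 FPKM and listed at 0 in all 5 HL1cm. Of 19 endoplasmic reticulum chaperones and stress genes 1 (5.26%) was past the fold in each direction (Ddit3 higher in mMSCs, Hyou1 higher in HL1cm). Of 20 cholesterol genes 1 (5%) was past it and higher in mMSCs and 2 (10%) higher in HL1cm. Of 12 genes of general use, 9 were not past the fold. Actb and Tbp were past it and higher in mMSCs (16.7%), and 1 was past it and higher in HL1cm (8.33%). Among the 10 genes with the highest lowest value over all 21 cells were Rpl41, Ftl1, Rps28, Cox6a1 and Rplp0. Ftl1, ferritin light chain, was above 2825 FPKM in every cell and was nonetheless higher in mMSCs, at 12265, 16350 and 31953 FPKM, than in HL1cm, at 3745, 6813, 3515, 5831 and 2825. Its difference of 2.04 was 1.75 once libraries were scaled by their median ratio.

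**Figure D5:**
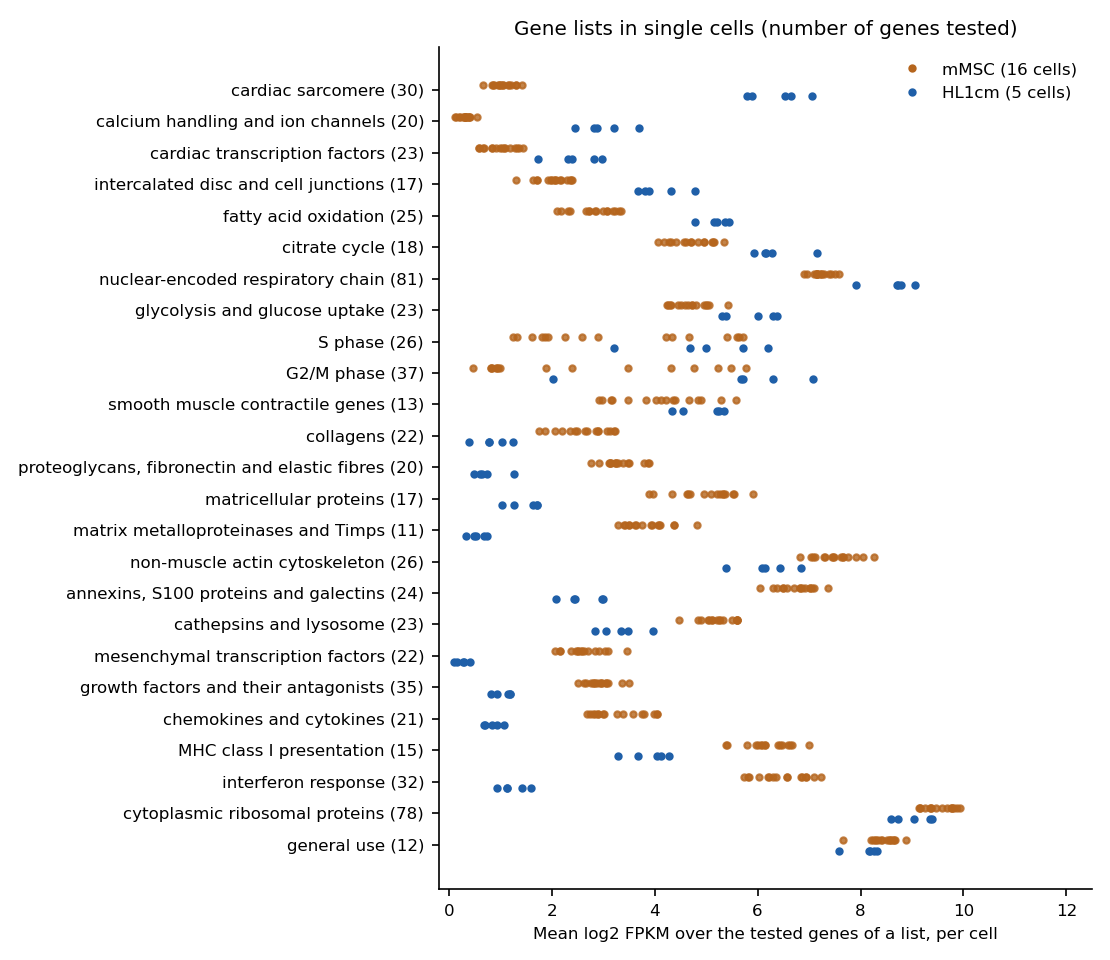
Mean log2 FPKM over the tested genes of 25 lists (number of genes in brackets), with a brown point for each of 16 mMSCs and a blue point for each of 5 HL1cm. Blue points lie to the right for cardiac and mitochondrial lists and brown points for matrix, lysosomal and interferon lists, while the S phase, G2/M and smooth muscle lists overlap.

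Counted over all 53 lists, 18 had a median difference of 1 or more and 13 of −1 or less. The mean level of the cells did not overlap for 17 lists higher in mMSCs and 8 higher in HL1cm. Further lists with a median of 1 or more in size included imprinted genes (3 of 12 past the fold, 25%, all higher in mMSCs, median 1.05). Of these, Igf2r was at 0.764, 7.08 and 13.3 FPKM in mMSCs and above 0 in HL1cm2 alone. Another was the list of MSC multipotency genes that the study itself chose, which is not independent evidence of its direction. Of its 30 genes 13 (43.3%) were past the fold and higher in mMSCs and 2 (6.67%) higher in HL1cm (median 1.60). Lists with no more than 4 tested genes included IGF-binding proteins (1 of 4 past the fold in each direction, median 1.16) and adipocyte genes (1 of 4 in each direction, 1.19). Others were macrophage genes (1 of 3, higher in mMSCs, 1.60) and epithelial genes (1 of 3 in each direction, −1.51). So were endothelial genes (none of 2, −1.05) and neuronal genes (1 of 2 in each direction, −1.10). The natriuretic peptide list (4 tested, median −3.78) and the sex chromosome list (Xist alone tested, 3.80) were as small. These last lists are part of the totals above, both for the medians and for mean levels without overlap.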

How the data were processed

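Full-length RNA-seq libraries of 16 single mMSCs, 5 single HL1cm and 2 population controls were used. Per the labels and methods, the authors aligned reads to mm10 with TopHat2 2.0.12 and made the deposited FPKM values with Cufflinks 2.2.1 (versions from the submitters' processing notes). FPKM carry no read counts, so no count test was made, and the sequencing depth that the study states was not used here, so no precision was derived from it. Columns were matched to samples by name, and 0 sample columns were left over. No doublet caller was run.

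Log2 FPKM with values under 1 set to 1 were compared as mean of mMSCs minus mean of HL1cm over the 11824 genes that reached 1 FPKM in 2 or more cells, using Python 3.11.15, pandas 2.3.3, numpy 2.4.6, scipy 1.17.1 and matplotlib 3.10.9. The script for the difference was tested on simulated data. Each cell type is 1 sample, so no p-value is given. The members and lists were chosen with earlier results of these data known. Named genes were the 20 of largest difference in each direction among genes without overlap and at 10 FPKM or more in every cell of the higher type. Genes of the study's MSC multipotency list were left out of these 20. Also named were up to 6 members of largest absolute difference per list, the label's markers, the general use and sex chromosome lists, the paralogue pairs, the 5 genes in each direction with the largest opposite difference in bulk and the 10 genes with the highest lowest value. Others are said to have been named after their values were seen. Promoters and gene positions came from RefSeq (GRCm38.p6), with a promoter for 9417 genes and a position for 11743. The alternatives were other limits of detection, log scales, library scalings, filters and fold sizes, the median of the cells, and leaving out cells. Values of some genes are not reported here.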

Additional observations from a re-analysis of the deposited data

Results flagged for a closer look

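Among the 5 HL1cm, 1 cell stood apart from the other 4 for 29 of the 171 genes examined, by a gap of more than 0.71 of the whole range. Chance sets off such a flag in about 1 of 20 groups, and for 20 of the 29 genes the other 4 cells were listed at 0, so that any value above 0 met the limit.

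The cells that stood high did so at low FPKM. In HL1cm1 these were Bgn at 1.97, Ccnd1 at 1.56, Ccnd2 at 1.63, Col5a2 at 1.71, Ecm1 at 4.76 and Myh7 at 4.66. In HL1cm2 they were Cd44 at 1.94, Fgf7 at 21.1, Igf2r at 1.56, Pdpn at 5.11 and Tubb6 at 37.9. In HL1cm3 they were Anxa1 at 4.47, Fabp5 at 6.30 and Irf7 at 15, and in HL1cm4 Ccl5 at 14.1, Mmp2 at 1.54 and Timp2 at 7.87. In HL1cm5 they were Ccl2 at 9.16, Col1a1 at 7.61, Ifitm3 at 20.2, Runx1 at 1.33 and Tbp at 10.3.

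The cells that stood low were HL1cm3 and HL1cm5, which also had the lowest FPKM sums. HL1cm3 was low for Cd63 at 16.7, Itgb1 at 9.32, Myh9 at 4.91 and Tbx5 at 0, and HL1cm5 for Gpx3 at 525, Ldhb at 182 and Tnni3 at 1104. The part of the low sums in these values was not tested.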

How the results depend on the processing

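Counts of genes past the fold followed the limit of detection and the size asked for. With values under 0.1 FPKM set to 0.1, 2111 genes were higher in mMSCs and 2167 in HL1cm, 2234 were also past the fold in bulk, and median r was 0.631 within mMSCs, 0.621 within HL1cm and 0.448 between types. With values under 10 set to 10, these were 298, 240, 401, 0.828, 0.794 and 0.648, PC1 held 29.9%, and 5 lists had a median of 1 or more and 7 of −1 or less. With no filter on low genes those lists were 6 and 6. A difference of 1 or more gave 2522 and 2550 genes, and one of 3 or more 483 and 467. Libraries scaled to the same sum gave median r of 0.705, 0.681 and 0.519, and unit variance a PC1 of 16.2%. Scaling by the median ratio gave 886 and 1292 genes past the fold and 230 and 277 without overlap, so that the direction with more genes without overlap turned, and moved the median difference of all genes to −0.06. Without HL1cm3 and HL1cm5 (chosen after the data were seen), 442 genes did not overlap on the HL1cm side, a count that having fewer cells raises by itself.

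Leaving out 1 HL1cm in turn gave 1037 to 1107 and 1097 to 1250 genes past the fold, 276 to 312 and 237 to 287 without overlap and a median r within HL1cm of 0.687 to 0.703. Leaving out 1 mMSC gave 1011 to 1071 and 1078 to 1125 past the fold. Of 31 lists with a median of 1 or more in size, 1 changed sign, the neuronal list, at 2.54 when 5 or more cells had to reach 1 FPKM, where 1 gene was left. Of 262 named genes past the fold none changed sign under the alternatives run, and 104 were below the fold under at least 1 of them. Most of these genes were named for the size of their difference in these same data, so a change of sign was unlikely. No paired analysis was possible because the results come from no test and a replicate number only names a cell. FPKM hold no read numbers, so the level below which a gene is listed at 0 is not given here.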

Other observations

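Levels also differed by chromosome. Over 2223 genes whose mean log2 level was that of 10 FPKM or more in both types and that had a position in RefSeq, the median difference of the genes on chromosome 4 was −0.69 relative to all, and in the population controls −0.59. In single cells the largest shift was that of chromosome 18, at 0.77 (48 genes) and 0.63 in the population controls. That of chromosome 10 was 0.69 (103 genes) and in the population controls 0.68, and that of chromosome 11 was −0.40 (198 genes) and −0.28. For chromosome 4 each HL1cm taken alone gave a value from −0.86 to −0.55, for chromosome 10 from 0.48 to 0.89 and for chromosome 18 from 0.56 to 0.94. The X chromosome was at 0.65 (92 genes) and 0.23 in the population controls, and single HL1cm ranged from 0.02 to 1.67, HL1cm3 being the highest.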
